A study of Mus musculus with 11 samples.

Results

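Potassium channel subunits, the products of the Kcn genes, were followed in the newborn main olfactory epithelium (MOE) of wild type and Bcl11b KO mice. A gene was taken as a member when the annotation of the array, an Affymetrix design of the whole mouse genome, gave a probe set exactly 1 symbol beginning with Kcn and a further lower-case letter. Such symbols numbered 84, on 167 probe sets. A probe set was tested when its mean signal over the 11 arrays was at least 20, which kept 108 probe sets of 66 genes among 15133 genes tested in the whole series. Of those 66, 64 encode channel subunits (102 probe sets), and 2 are non-coding transcripts that share the prefix, Kcnq1ot1 and Kcnmb4os2. A further 14 Kcn genes of the RefSeq table had no probe set naming them alone in the annotation used and were not analysed here.

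The arrays held RNA of whole MOE at postnatal day 0 from 5 wild type mice, all male, and 6 conventional Bcl11b KO mice, 4 male and 2 female (replicates 3 and 6), all labelled BALB/c. Both Bcl11b alleles were disrupted in the germ line of the KO, so that every Bcl11b-expressing tissue of the animal was affected and not only the olfactory sensory neurons (OSNs). Labels give no litter or day of dissection. Values are signals after the authors' linear scaling of each array to GAPDH, and changes are given as KO minus wild type of log2(signal + 16), so that those of dim probe sets come out too small. In whole tissue, fewer cells of a type and less RNA per cell cannot be told apart.

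Potassium channels set the resting potential of a cell and bring it back there after excitation. Their pores are built from voltage-gated (Kv), calcium- or sodium-activated, inward rectifier (Kir) or tandem-pore-domain subunits, while silent Kv subunits form no working channel alone and auxiliary subunits change the gating or trafficking of the pores. In OSNs, potassium channels shape the firing that follows the odorant-gated current, and in the supporting and gland cells of the epithelium they take part in ion and fluid transport.

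Bcl11b itself checked the labels. On its brightest probe set the signal lay between 2694.3 and 4122.7 in wild type and between 560.5 and 1249.8 in KO. Its change was -1.88 ± 0.17 (SE; limma, adjusted p = 1.2e-05). Median signals of the arrays ran from 56.6 to 86.5. The ratio of 3' to 5' GAPDH signal was highest on KO 3 (2.70) and KO 2 (2.42). Mature OSN markers were lower in the KO: all 14 tested of 18 listed had a negative change, 6 passed the threshold (Cnga4, Gnal, Gng13, Stoml3, Umodl1 and Carns1), and their summed signal was 15286 to 20302 in wild type against 9327 to 12848 in KO. None of those 14 was at 0 on any array. Markers of other cells passed too, given as log2 changes. Neurog1 (0.91) and Neurod1 (0.66) were higher among 9 tested genes of neuronal precursors, 8 of them positive. Hbb-y (2.19) and Hbb-bh1 (2.001) were higher among 5 erythroid genes, 4 of them positive. Ckm (1.53) was higher among 7 genes of skeletal muscle, 5 of them positive. Vmn1r171 (-1.21) was lower among 5 vomeronasal genes, of which 3 were positive. No gene passed in the other marker lists, among them immature OSNs (14 tested, median 0.06) and supporting (sustentacular) cells (9 tested, median 0.04). Group means lay under 20 for Hbb-bh1 (13.2) and Ckm (19.0) in wild type and for Vmn1r171 (9.95) in KO. The part of these marker differences in the channel results below was not tested.

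Few potassium channel genes changed. Of the 108 probe sets, 3 passed the threshold (limma, adjusted p under 0.05 over all 33662 probe sets tested), all of them lower in the KO: both probe sets of Kcnc4 and 1 of Kcnip4. They made up 2.78% of the Kcn probe sets, where 0.211% of all probe sets were lower. By the same limma test 0 Kcn probe sets were higher, against 0.244% of all. At an unadjusted p under 0.05 (limma), 13 of the 108 Kcn probe sets were lower, a larger share than the 2.45% of all probe sets. Higher were 5 of the 108, a share close to the 4.47% of all. Every wild type array lay above every KO array for 5 of the 108, where 0.573% of all probe sets did so. Every wild type array lay below for 2 of the 108, where 0.716% of all did. The median change of the Kcn probe sets was -0.04, with 62 negative and 46 positive, beside 0.05 over all probe sets tested. In all, 94 of 108 changes (87.0%) lay within 0.5 of 0 on the log2 scale. The median half-width of an unadjusted 95% confidence interval was 0.45, and for 5 of those 94 the interval left out 0 (Kcnmb4os2, Kcnk1, Kcna5, Kcnab2 and 1 probe set of Kcnh3).

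**Figure D1:**
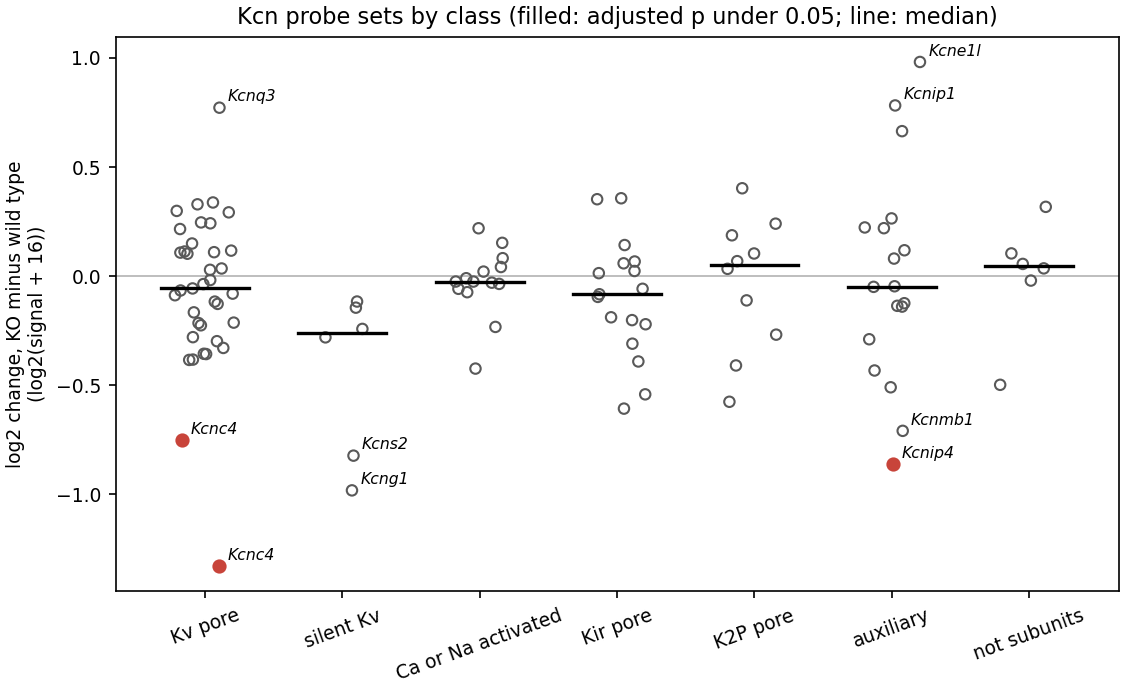
Log2 change (KO minus wild type, log2(signal + 16)) of each of the 108 tested Kcn probe sets, grouped by class of subunit; each point is 1 probe set, filled where the limma adjusted p was under 0.05, and the black line is the class median. The filled points are the 2 probe sets of Kcnc4 and 1 of Kcnip4, and all 6 silent Kv points lie below 0.

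Kcnc4 and Kcnip4, the genes that passed, are read from the minus strand. The 250 bases before each RefSeq start (GRCm38.p6) are shown because these are the members whose transcripts differed. That of Kcnc4 lies at chr3:107458899-107459148. Kcnip4 has 2 starts in the table, at chr5:49285660-49285909 for the upstream window and chr5:48599683-48599932 for the downstream one. Each is written 5′ to 3′ on the gene's strand in lower case, where capitals would mark a match to a searched motif.
Kcnc4: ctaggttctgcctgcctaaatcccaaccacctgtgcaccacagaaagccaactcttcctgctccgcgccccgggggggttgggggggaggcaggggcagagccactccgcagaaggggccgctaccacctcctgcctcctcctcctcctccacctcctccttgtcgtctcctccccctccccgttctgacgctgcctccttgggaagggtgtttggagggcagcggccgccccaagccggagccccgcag
Kcnip4, upstream start: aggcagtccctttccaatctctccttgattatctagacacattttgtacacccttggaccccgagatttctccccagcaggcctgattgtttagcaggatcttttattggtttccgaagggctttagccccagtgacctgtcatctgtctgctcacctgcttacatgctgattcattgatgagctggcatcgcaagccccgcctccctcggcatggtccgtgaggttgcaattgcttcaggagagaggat
Kcnip4, downstream start: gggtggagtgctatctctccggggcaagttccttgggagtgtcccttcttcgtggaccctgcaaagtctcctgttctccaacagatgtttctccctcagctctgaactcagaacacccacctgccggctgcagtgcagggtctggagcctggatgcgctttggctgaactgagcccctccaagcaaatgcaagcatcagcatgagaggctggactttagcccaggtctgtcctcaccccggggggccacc
GC content was 68% for Kcnc4, and 51.2% and 59.2% for the windows of Kcnip4, beside a median of 52.4% over 32851 promoter windows and 58.6% over those of the tested Kcn genes. Searched on both strands, the palindromic Ebf motif (TCCC, any pair of bases, GGGA) was found in 0.779% of all windows, TAATTA in 4.84%, TGACCA in 11.4% and TATAAA in 12.4%. None of these letter strings occurred in the 3 windows, so nothing is in capitals. Of 76 windows of 52 tested Kcn genes, 0, 0, 7 and 2 held them, in that order.

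Kcnc4 encodes a pore subunit of the Shaw-type Kv channels, which open at strong depolarization and speed the return of the membrane after a spike. On its brighter probe set, whose identifier marks a design that can match several transcripts, the wild type signals were 654.7, 606.4, 612.9, 551.1 and 454.3, and the KO signals ran from 257.6 through a median of 329 to 466.2. The groups touched in 1 place, where KO 1 at 466.2 stood above wild type 5 at 454.3. The log2 change was -0.75 ± 0.16 (SE; limma, adjusted p = 0.0389), and the KO mean was 58.7% of the wild type mean. On the dimmer probe set the wild type signals were 86.9, 130.7, 89.1, 48.1 and 47.5, and the KO signals ran from 8.6 through a median of 24.7 to 35.5. No KO array reached the lowest wild type array. Its log2 change was -1.33 ± 0.26 (SE; limma, adjusted p = 0.0228).

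Kcnip4 encodes an auxiliary calcium-binding protein of the Kv channel interacting family, which binds Kcnd pore subunits and alters their inactivation and surface delivery. On its brighter probe set the wild type signals were 92.6, 84.8, 88.3, 95.6 and 80.1, and the KO signals ran from 23.7 through a median of 44.4 to 55.9. The groups did not overlap, and the log2 change was -0.86 ± 0.18 (SE; limma, adjusted p = 0.0373). On the second probe set, wild type signals were 35.3, 34.1, 34.5, 45.3 and 35.1, and KO signals ran from 9.0 through a median of 22.0 to 31.6. These groups did not overlap either, but the change of -0.51 ± 0.20 (SE) did not pass the threshold (limma, adjusted p = 0.565).

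These calls stood near the threshold. With males alone the adjusted p was 0.0919 and 0.0827 for the probe sets of Kcnc4 and 0.107 for Kcnip4, and leaving out single arrays gave ranges of 0.0138 to 0.154 (brighter Kcnc4), 0.0195 to 0.0952 (dimmer Kcnc4) and 0.0352 to 0.123 (Kcnip4), while all 3 changes remained negative under every alternative tried.

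**Figure D2:**
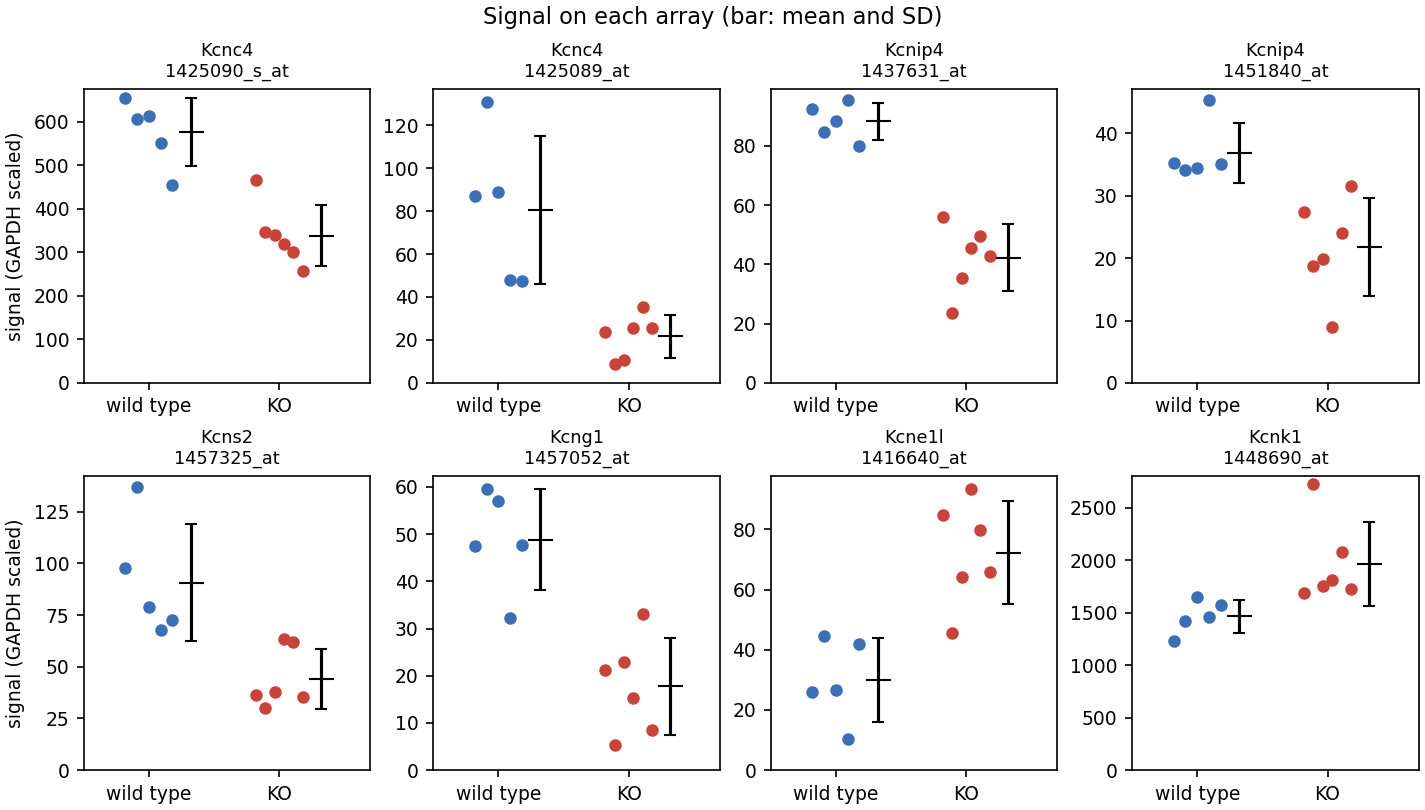
Signal (linear, scaled to GAPDH) on each of the 5 wild type and 6 KO arrays for 8 probe sets of Kcnc4, Kcnip4, Kcns2, Kcng1, Kcne1l and Kcnk1; each point is 1 array in replicate order and the bar is the mean with SD. The groups are apart for the dimmer Kcnc4 probe set, both Kcnip4 probe sets, Kcns2, Kcne1l and Kcnk1, and overlap for the brighter Kcnc4 probe set and Kcng1.

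Other genes of both subfamilies gave different values. Of the 7 Kcnc probe sets, the 4 of Kcnc1 changed by -0.21 to 0.12 and that of Kcnc2 by 0.30, none past the threshold. The Kcnc2 probe set met the minimum signal only through KO arrays. Its wild type mean was 16.1 and its KO median 17.9, with KO 5 (56.6) and KO 6 (32.9) highest. Of the 7 Kcnip probe sets, 5 were positive, and the subfamily median was 0.22. Kcnip2 had signals of 54.6, 89.5, 84.3, 120.0 and 112.6 in wild type and 107.6 to 217.6 (median 150) in KO, overlapping groups with a change of 0.66 ± 0.20 (SE; limma, adjusted p = 0.274). The 2 probe sets of Kcnip1 changed by 0.12 and 0.78, and those of Kcnip3 by 0.22 and 0.26. The Kcnip1 probe set at 0.78 also met the minimum only through KO arrays. Its wild type mean was 13.8 and its KO median 24.3, with KO 5 (74.4) and KO 6 (64.8) highest. Kcnd genes, the pore partners of the Kcnip proteins, changed by -0.22 to 0.25 over 6 probe sets. Differences between members of a subfamily were not tested.

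**Figure D3:**
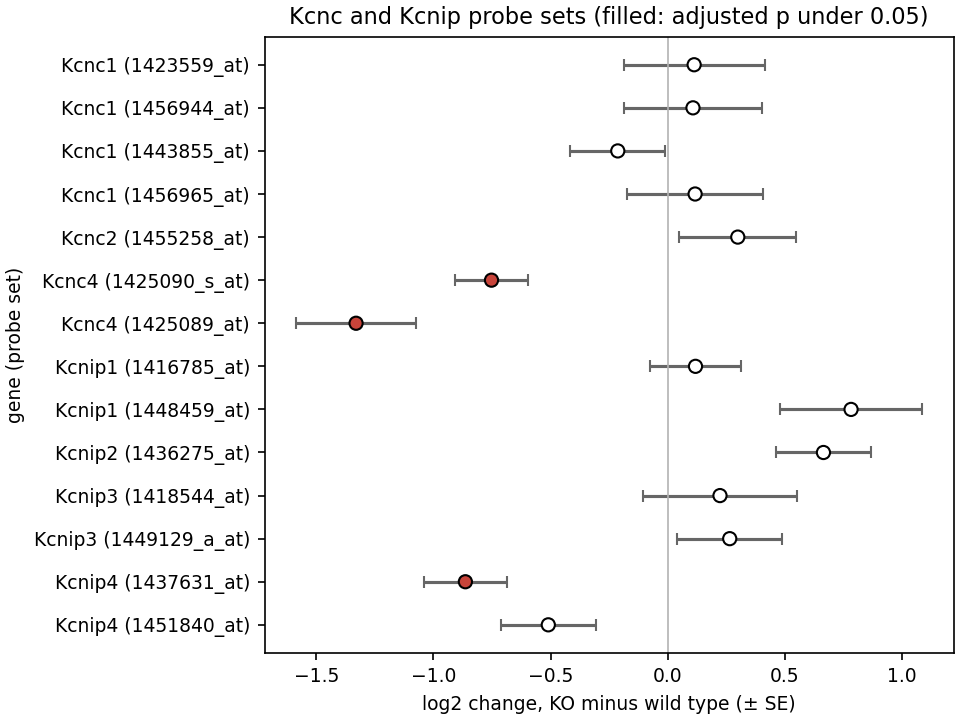
Log2 change (KO minus wild type) with its SE for the 14 tested probe sets of the Kcnc and Kcnip subfamilies, filled where the limma adjusted p was under 0.05. Kcnc4 and Kcnip4 lie below 0 on both of their probe sets, and the Kcnip1, Kcnip2 and Kcnip3 points lie above 0.

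Silent Kv subunits, which join Kcnb pores and alter them, had negative changes on all 6 tested probe sets of 6 genes, with a median of -0.26 and 0 past the threshold (2 at an unadjusted p under 0.05). Kcng1 gave wild type signals of 47.5, 59.5, 57.1, 32.3 and 47.8 and KO signals of 5.3 to 33.1 (median 18.3). Only KO 5, at 33.1, stood above the lowest wild type array. The Kcng1 probe set met the minimum signal only through wild type arrays, with a wild type mean of 48.8 and a KO mean of 17.7. Its change was -0.98 ± 0.23 (SE; limma, adjusted p = 0.0892). Kcns2 gave 97.6, 136.7, 78.7, 67.7 and 72.8 in wild type and 30.2 to 63.2 (median 37.2) in KO, without overlap, a change of -0.82 ± 0.21 (SE; limma, adjusted p = 0.120). Of 31 alternatives, Kcng1 passed under 5 and Kcns2 under 4, among them scaling of the arrays to a common median. With males only they did not pass (limma, adjusted p = 0.17 and 0.282). The cause was not tested. The other silent subunits, Kcnf1, Kcng2, Kcng4 and Kcns3, changed by -0.28 to -0.12, with SEs of 0.25 to 0.30. No Kcnb probe set was among those tested.

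Among the remaining Kv pores none passed the threshold. Kcna5, a delayed rectifier subunit, read 1595.5, 1636.4, 1617.6, 1435.2 and 1587.4 in wild type and 793.8 to 1505.5 (median 1302) in KO, overlapping groups with a change of -0.38 ± 0.15 (SE; limma, adjusted p = 0.522). Kcnq3, a subunit of the M-type channels that restrain repeated firing, read 18.4, 42.9, 40.4, 51.5 and 52.9 in wild type and 47.2 to 116.3 (median 82.5) in KO, a change of 0.77 ± 0.24 (SE; limma, adjusted p = 0.283). Only KO 6 lay within the wild type range. Kcnq3 had 2 tested probe sets, and of the 6 of the Kcnq subfamily only this 1 was higher at an unadjusted p under 0.05 (limma). All 8 probe sets of the 5 tested Kcnh genes, of the ether-a-go-go family, had negative changes, between -0.38 and -0.02. The brightest probe sets of Kcna1, Kcnq1 and Kcnd2 changed by 0.33, 0.29 and 0.25. In their subfamilies, 5 of 10 Kcna, 2 of 6 Kcnq and 3 of 6 Kcnd probe sets had negative changes.

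Kir pores, which pass current more easily inward and help to hold the resting potential, had 17 tested probe sets of 11 genes with a median of -0.08 and 0 past the threshold (limma, 2 lower at an unadjusted p under 0.05). Those were Kcnj1, at -0.61 ± 0.24 (SE), and 1 of 3 probe sets of Kcnj3, at -0.54 ± 0.20 (SE), beside -0.10 and -0.22 on its others. Kcnj15 gave -0.06, 0.14 and 0.35 on its 3 probe sets. Kcnj16 gave 0.36 and -0.08.

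Tandem-pore-domain subunits, which carry background current, had 10 tested probe sets of 8 genes with a median of 0.05 and 0 past the threshold (limma, 1 higher at an unadjusted p under 0.05). For Kcnk1 the wild type signals were 1232.6, 1424.4, 1647.7, 1455.6 and 1571.0, and the KO signals ran from 1690.7 through a median of 1782 to 2724.8. The groups did not overlap, with KO 2 farthest above the rest, and the change was 0.40 ± 0.13 (SE; limma, adjusted p = 0.356). Its other probe set changed by 0.24 ± 0.22 (SE) with overlapping groups. Kcnk2 changed by 0.10 and Kcnk7 by -0.58.

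Among auxiliary subunits other than the Kcnip family, Kcne1l, an X-linked single-span subunit, read 26, 44.6, 26.5, 10.2 and 42.0 in wild type and 45.7 to 93.5 (median 72.9) in KO. The groups did not overlap, and the male KO arrays alone spanned the same 45.7 to 93.5. The change of 0.98 ± 0.23 (SE) missed the threshold (limma, adjusted p = 0.0775). Kcnab2, a cytoplasmic beta subunit of the Kcna pores, changed by -0.43 ± 0.17 (SE; limma, adjusted p = 0.562). Kcnmb1, a beta subunit of the large-conductance calcium-activated channel, gave -0.71 on 1 probe set and 0.22 on the other. Kcnmb2 gave -0.14 on both, and Kcne4 gave -0.05.

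**Figure D4:**
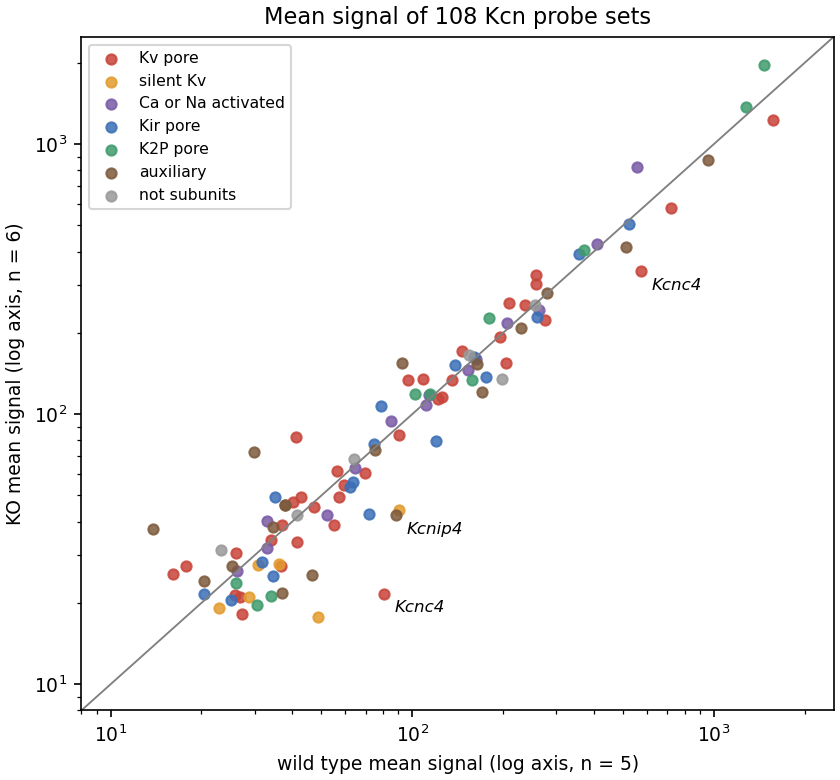
Mean signal in KO (n = 6) against wild type (n = 5) for the 108 tested Kcn probe sets, both on log axes, coloured by class; the line marks equal means. Most points follow the line, and the 3 probe sets that passed the threshold are named.

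Calcium- and sodium-activated pores had 14 tested probe sets of 7 genes with a median of -0.02 and 0 past the threshold (limma, 0 at an unadjusted p under 0.05 in either direction). The 5 probe sets of Kcnma1, the large-conductance pore, changed by -0.06 to 0.15. Kcnn4, the intermediate-conductance calcium-activated pore, differed most among arrays of a group: its probe sets had the largest within-group SD of the 108, 1.29 and 1.11 on the log2 scale, where the median was 0.37. On the brighter of them wild type signals were 836.0, 319.4, 496.0, 438.8 and 687.2, and KO signals were 160.1, 1801.2, 99.8, 1116.8, 1370.4 and 376.7 for replicates 1 to 6. The highest KO array was 18 times the lowest. The group difference was -0.03 ± 0.57 (SE; limma, adjusted p = 0.998). The second probe set followed the first over the 11 arrays (r = 0.961).

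Kcnn4 was singled out for this spread after its values were seen, and the genes set beside it are given as a description, with no p. Gland and secretory markers varied over the same arrays. Over the 11 arrays all 9 tested genes of that list had a positive correlation with Kcnn4, from 0.251 to 0.859. The median r with Kcnn4 over 33660 probe sets was itself positive, at 0.124. Obp1a, an odorant-binding protein, had r = 0.859 (Spearman's rho 0.955), and r = 0.854 without KO 2 and KO 3, the arrays farthest from the median of Kcnn4. Obp1a read only 0.5 to 16.2 on wild type 2, 3 and 4 and KO 1, 3 and 6, below the minimum mean signal. Its ranks among those dim arrays are uncertain, as no background level is known. Lcn11, a lipocalin, had r = 0.80 (rho 0.873), and 0.869 without KO 2 and KO 3. Its signals ran from 2.5 (KO 1) to 13265.3 (KO 2). Lrrc26, a gamma subunit of the large-conductance channel, was picked from a scan of 33660 probe sets against Kcnn4, in which 74 had r of 0.9 or more and 9, itself included, had at least its r of 0.95. Its rho was 0.964 and its r 0.899 without KO 2 and KO 3. Without KO 2 and KO 3 the 9 gland genes ranged from 0.385 (Aqp5, which had 0.74 over all 11 arrays) to 0.869. Within the 7 arrays of lower poly-A control signal r was 0.958 for Lrrc26, and the gland genes ranged from -0.0808 (Muc5b) and 0.0362 (Muc5ac) to 0.849 (Obp1a), so the relation did not hold for every gene of the list. The 4 other arrays were too few for a value. The summed gland signal ran from 28818 to 40141 in wild type and from 20045 to 51360 in KO, and its part in the spread of Kcnn4 was not tested.

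**Figure D5:**
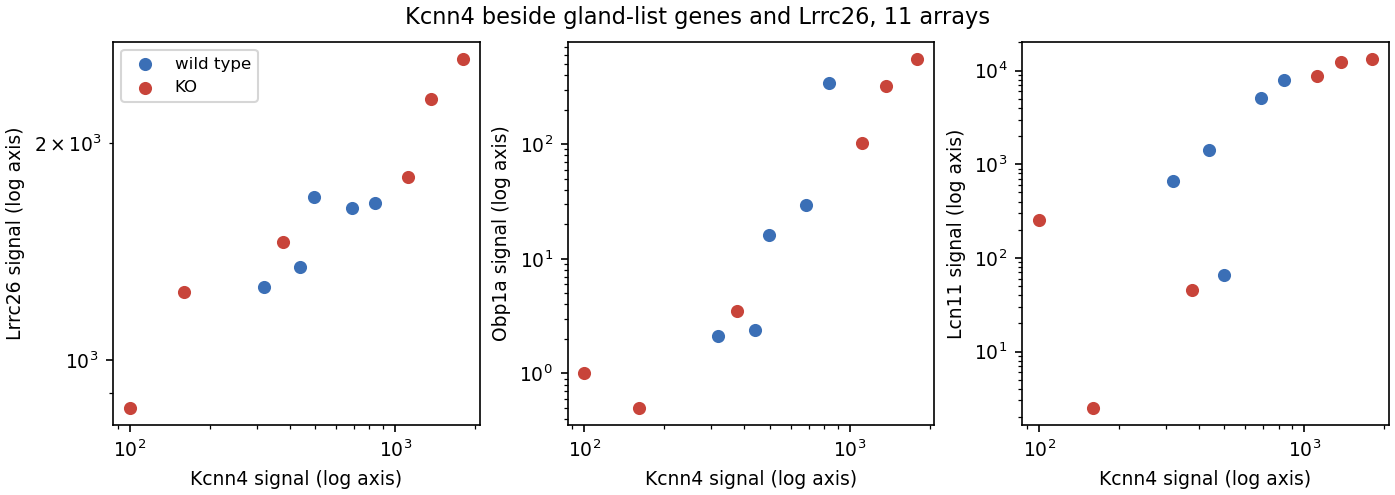
Signal of Lrrc26, Obp1a and Lcn11 against that of Kcnn4 (brighter probe set) on the 11 arrays, all on log axes, wild type in blue and KO in red. KO arrays lie at both ends of the Kcnn4 range, from 99.8 to 1801.2, with wild type arrays between; Lrrc26 was picked from a scan for likeness to Kcnn4.

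The non-coding transcripts are listed apart. Kcnmb4os2, annotated opposite strand to Kcnmb4, read 190.2, 201.6, 196.4, 179.9 and 221.3 in wild type and 122.4 to 146.6 (median 134) in KO, without overlap, a change of -0.50 ± 0.13 (SE; limma, adjusted p = 0.165). Kcnmb4 itself changed by -0.29 ± 0.15 (SE) with overlapping groups. The 5 probe sets of Kcnq1ot1 changed by -0.02 to 0.32.

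Probe sets of a gene did not always move together: of 29 genes with several tested probe sets, 17 had changes of a single sign. The 59 Kcn probe sets below the signal minimum left 18 genes untested, and for none of those 59 did the groups lie apart. The brightest group mean among them was 23.2 in wild type and 21.7 in KO. Just outside the minimum lay another probe set of Kcnip1, with a mean signal of 19.8, and just inside lay Kcng4 with 20.8 and Kcnj14 with 21.0.

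Genes that work with the channels were counted beside them. Of 34 listed partners (anchoring, trafficking and accessory proteins) 26 were tested. By limma 0 were lower and 0 higher, with 1 and 2 at an unadjusted p under 0.05, and their median change was 0.10. Of 17 HCN, CNG and TRP channels 12 were tested and 1 fell: Cnga4, part of the channel that cyclic AMP opens in OSNs and also a mature OSN marker, at -1.04 ± 0.17 (SE; limma, adjusted p = 0.00468). At an unadjusted p under 0.05, 2 of the 12 were lower and 1 was higher, Hcn3, which read 11.4 to 39 in wild type and 55.7 to 87.6 in KO, without overlap, a change of 0.90 ± 0.21 (SE; limma, adjusted p = 0.0775). Of 21 voltage-gated calcium channel subunits 19 were tested, and of 17 chloride channels and transporters 13. In both lists limma called 0 in either direction, with 1 lower and 2 higher at an unadjusted p under 0.05 among the calcium channels and 0 among the chloride channels. Their median changes were 0.02 and 0.15.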

How the data were processed

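RNA of whole MOE was measured on 11 Affymetrix arrays, 5 wild type and 6 Bcl11b KO, grouped by their labels. The deposited values are intensities on a linear scale, 1 per probe set and array. The authors labelled cRNA in a protocol of repeated amplification and scaled each array linearly to a GAPDH probe set in the GeneChip operating software, version not given in the sources used here. The GAPDH probe set is at 10000 throughout, and any difference in GAPDH between groups would shift all values. Detection calls were not used, and the number of arrays limits the precision.

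Of 45101 probe sets, 64 controls and those with a mean signal under 20 were left out, leaving 33662. KO and wild type were compared on log2(signal + 16) with lmFit and trended eBayes of limma 3.58.1 under R 4.3.3, no covariate, and Benjamini-Hochberg adjustment over all 33662 with a threshold of 0.05. Labels do not say whether preparations share a litter, and p-values measure the spread between them. The fit was tested on simulated data.

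The members, lists and tests were chosen with earlier results of these data known. Genes were named by a rule: those past the threshold, the 8 of largest rise and fall, the brightest of each subfamily and that of smallest p in each class, each gene by its brightest tested probe set. Other genes named were chosen after their values were seen, among them Lrrc26, Obp1a and Lcn11, which were set beside Kcnn4 after a scan of all tested probe sets. Promoter windows and gene names came from RefSeq tables of GRCm38.p6, against which 0 symbols changed. Alternatives covered scaling, pseudocount, filter, variance model, weights, sex, the replicate number, poly-A control signal, RNA quality, probe set choice and leaving out each array. Labels name no labelling batch. Arrays were split at the widest gap of their 3' poly-A control signal, into 4 of higher and 7 of lower signal. The 4 were wild type 1 and KO 4, 5 and 6. On the log2 scale the gap ran from 8.60 (wild type 2) to 8.84 (KO 5). The next gap, from 8.91 (KO 4) to 9.14 (KO 6), was nearly as wide. The groups of this split are called poly-A batches below, and whether they were labelled apart was not tested.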

Additional observations from a re-analysis of the deposited data

Results flagged for a closer look

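Of 66 groups of arrays examined, both genotypes of 33 named probe sets, 5 held 1 array far from the others, and chance gives about 1 in 20. For Kcna5, wild type 4 read 1435.2 where the other wild type arrays read 1587.4 to 1636.4. For the brightest probe set of Kcnh3, wild type 3 read 383.9 against 237.7 to 253.9. For Kcnq3, wild type 1 read 18.4 against 40.4 to 52.9. For Kcnt1, a sodium-activated pore, KO 4 read 26.6 against 38.8 to 45.9. For the second Kcnip4 probe set, wild type 4 read 45.3 against 34.1 to 35.3.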

How the results depend on the processing

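The count of 3 lower Kcn probe sets depended on the processing. It was 5 with scaling on the array median, quantile normalization or array weights, 6 with scaling on spiked hybridization controls, 1 with no filter, with a minimum signal of 100, without KO 2 and KO 3 (the highest GAPDH 3'/5' ratios) or with the mean of a gene's probe sets, and 0 with males only, with sex as a covariate and within either poly-A batch by either split. With the replicate block it was 0 as well. The count over all probe sets moved too, from 71 lower to 96, 173, 120 and 231 under array median, quantile, array weights and spiked controls, to 52 and 56 with no filter and a minimum of 100, to 80 without KO 2 and KO 3, to 57 and 44 with males only and sex as a covariate, to 29 with the replicate block, and to between 0 and 18 within the poly-A batches. Leaving out single arrays gave 36 to 85 over all probe sets. Same-numbered arrays did not deviate together (correlations of -0.28 to 0.01), so the numbers were not taken as pairs. Leaving out single arrays gave 0 to 3, with 0 without wild type 1, 2 or 3 and 1 without wild type 4, KO 4 or KO 6. The higher count of 0 became 1 (Kcne1l) under scaling on the array median, quantile normalization, array weights and without KO 2 and KO 3 together, and ranged from 0 to 1 when single arrays were left out (1 without KO 2). The median change was -0.20 under scaling on spiked controls. Removing KO 2 and KO 3 and the split that puts wild type 2 in the higher batch were chosen after seeing the data. The causes were not tested, beyond the fewer arrays of a split.

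Some small changes turned sign. Within the low poly-A batch Kcnc2 was -0.014, Kcnd2 -0.040 and Kcnma1 -0.10, and with wild type 2 moved Kcnc2 was -0.00078, Kcnma1 -0.014 and Kcnq1ot1 0.13. Within the high batch Kcnf1 was 0.32, Kcnj15 0.029, Kcnj16 -0.24 and Kcnma1 -0.13, and with wild type 2 moved Kcnj3 (its brightest probe set) was 0.0078 and Kcnn4 0.67. With the batch as a covariate Kcnma1 was -0.11, and -0.0076 with wild type 2 moved. With males only, and with sex as a covariate, Kcnj15 was 0.052, Kcnmb2 0.0039 and Kcnn4 0.64. Without KO 2 and KO 3 Kcne4 was 0.12, Kcnf1 0.014, Kcnn4 0.083 and Kcnq1ot1 0.17. Kcnma1 was -0.0082, -0.025 and -0.13 under array median, quantile and spiked-control scaling. Kcnn4 was 0.040 with a pseudocount of 64, 0.052 with array weights, 0.0020 with the GAPDH ratio as a covariate and 0.063 with the replicate block, under which Kcnq1ot1 was 0.067. Averaging probe sets gave 0.15 for Kcnj15 and 0.10 for Kcnq1ot1. Leaving out single arrays gave -0.17 to 0.090 for Kcne4, -0.28 to 0.033 for Kcnj3, -0.065 to 0.17 for Kcnma1, -0.38 to 0.42 for Kcnn4 and -0.21 to 0.23 for Kcnq1ot1. Dim probe sets have the widest relative error, and no background level is known for them.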
